A study of Mus musculus with 23 samples.

Results

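The genes described here encode the subunits of Mediator, and they were chosen by name: protein-coding genes called Med followed by a number, with or without a final l, plus Ccnc, Cdk8 and Cdk19. The only measured value in the choice was a mean normalized count of at least 10 over all libraries. All 33 genes with such names passed it, out of 51912 genes in the tables, 22025 of them protein-coding. The lowest was Med18, with a mean of 108 normalized counts, so no gene lay just outside the limit.

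Hippocampal mRNA was sequenced from male, wild-type C57BL/6 mice, an inbred laboratory strain, in 23 libraries, and the labels do not say whether each is of a different animal. The first generation held 4 libraries of exercised fathers, which had run on a treadmill for 40 minutes a day during 6 weeks, and 4 of sedentary fathers kept without a treadmill, all taken at 7 months of age. The second generation held 7 libraries of male offspring of exercised fathers and 8 of those of sedentary fathers, taken at 5.5 months. Animals of both generations were tested in hippocampus-dependent tasks before the tissue was taken, and the labels link no offspring to a father or a litter. The study asked how the hippocampal transcriptome of exercised fathers differed from that of sedentary fathers, and likewise for their offspring.

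Mediator is a large nuclear complex that carries signals from DNA-bound transcription factors to RNA polymerase II at promoters. Its head and middle modules contact the polymerase, its tail module is the main landing site for transcription factors, and Med14 runs through the complex as a scaffold. A separable kinase module, built from a Cdk8 or Cdk19 kinase, cyclin C (the product of Ccnc), Med12 and Med13 or their paralogs, binds the core reversibly and hinders its contact with the polymerase. In neurons Mediator takes part in transcription induced by activity, and inherited defects in several subunits cause intellectual disability in humans.

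Libraries held 40124885 to 55172616 reads in the fathers and 33667580 to 50746570 in the offspring, and both tables lay on one scale. All 9 markers of hippocampal neurons were detected in every library, the lowest single value being 1800 normalized counts, for the dentate gene Dsp. Markers of the neighbouring choroid plexus varied widely in all groups, with summed levels of 51945 to 188956 normalized counts in exercised fathers and 2411 to 180783 in sedentary fathers. In the offspring of exercised fathers the sum ran from 3521 to 204102, and in the offspring of sedentary fathers from 3025 to 185246. In the fathers, all 8 choroid plexus markers were higher on average in the exercised group, with a median log2 fold change of 1.69 and a smallest adjusted limma p of 0.646, and in the offspring 6 of 8 were higher with a median of 0.05. With choroid plexus and thalamus levels as covariates, 0 Mediator genes passed with limma in either exercise comparison. One library, replicate 7 of the offspring of exercised fathers, stood apart in its GC balance, described below, and the offspring values given without it stand beside the tail and kinase comparison.

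All Mediator genes were expressed in all 4 groups, at 64.2 (Med18) to 832 (Med24) normalized counts per kilobase of the longest transcript, averaged over the 23 libraries. The median of the 33 genes on this per-kilobase scale was 338, against 174 for the 18377 genes tested over all libraries. The tail module had the highest median of the modules with more than one gene, at 683, with Med24, Med25, Med16 and Med15 at 640 or more and Med23 at 277. The 8 head genes ranged from 64.2 to 659 (Med19), and the 8 middle genes from 143 (Med26, which bridges the complex to elongation factors) to 700 (Med9). Med27, Med28, Med29 and Med30, which structural accounts place in the head or the tail, lay close together, between 338 and 426. Med14 was at 575.

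The kinase module ran from 200 (Med12) to 592 (Cdk19) normalized counts per kilobase. Of the interchangeable kinases, Cdk19 was the more abundant transcript, with a median ratio to Cdk8 per kilobase of 2.24 in exercised fathers, 2.26 in sedentary fathers, 2.14 in offspring of exercised fathers and 2.37 in offspring of sedentary fathers. The lowest ratio in any library was 1.89. Med13l exceeded Med13, the subunit that tethers the kinase to the core, by a smaller margin, with median ratios of 1.25, 1.15, 1.30 and 1.22 in the same 4 groups. Med12 and its paralog Med12l stood at nearly the same level per kilobase, with median ratios of Med12l to Med12 between 0.995 and 1.11.

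**Figure D1:**
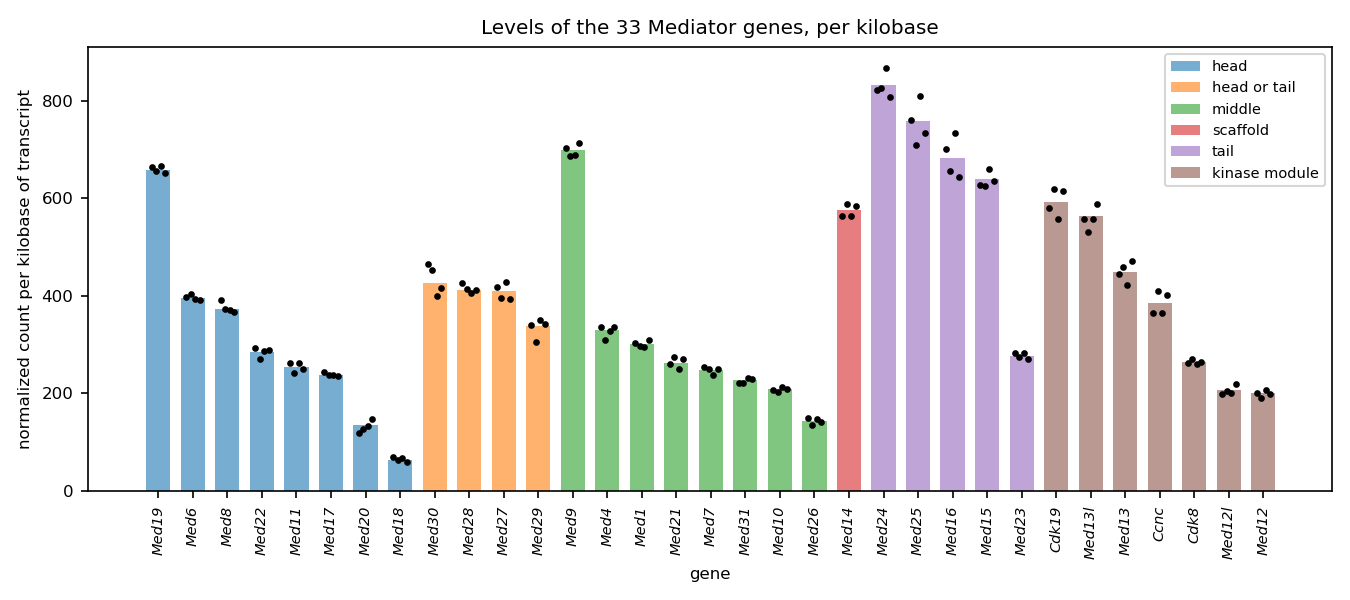
Mean normalized count per kilobase of longest transcript (y axis) for each of the 33 Mediator genes (x axis), coloured by module; bars are means over 23 libraries and the 4 dots on each bar are group means, from left to right those of exercised fathers, sedentary fathers, and their offspring in the same order. The group means of each gene lie close together beside the range between genes, from 64.2 for Med18 to 832 for Med24.

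Mediator transcripts varied between libraries of a group about as much as other genes of like level. The coefficient of variation within groups, averaged over the 4 groups, had a median of 6.33% over the 33 genes, against 7.10% over the 11152 genes in the same range of means. Med17, a core head subunit, varied least at 2.64%, followed by Med28 at 3.56% and Med24 at 4.07%. Med11 varied most at 10.97%, followed by Med30 at 10.8%, Med18 at 9.83% and Med12l at 9.69%.

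RefSeq promoters on GRCm38.p6, which run from 250 bases before to 50 bases after the start of the gene, were matched by symbol for 28 of the 33 genes. Those of the 2 genes with the smallest p above 0 and the 2 with the smallest p below 0 in the offspring comparison are shown, 5′ to 3′ on the strand of the gene. Capitals mark matches on either strand to TATAAA (known as the TATA box), CCAAT (the box of that name), GGGCGG (the GC box) or CCGGAA (the core of an ETS site), and no base lay in more than one match. The first is chr10:79908889-79909188 on the minus strand, the second chr7:44892375-44892674 on the minus strand, the third chr4:21727451-21727750 on the plus strand and the last chr17:47611335-47611634 on the plus strand.
Med16: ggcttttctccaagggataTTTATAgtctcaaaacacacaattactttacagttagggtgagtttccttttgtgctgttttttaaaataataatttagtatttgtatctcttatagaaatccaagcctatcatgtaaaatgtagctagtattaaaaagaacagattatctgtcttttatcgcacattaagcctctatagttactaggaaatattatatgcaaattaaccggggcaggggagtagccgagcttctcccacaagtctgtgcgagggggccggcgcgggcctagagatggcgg
Med25: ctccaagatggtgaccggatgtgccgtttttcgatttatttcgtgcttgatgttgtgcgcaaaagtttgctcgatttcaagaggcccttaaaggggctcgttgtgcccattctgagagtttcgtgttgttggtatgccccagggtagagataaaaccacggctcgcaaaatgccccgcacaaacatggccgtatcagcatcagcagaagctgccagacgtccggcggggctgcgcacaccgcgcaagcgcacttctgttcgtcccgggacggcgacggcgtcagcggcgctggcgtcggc
Ccnc: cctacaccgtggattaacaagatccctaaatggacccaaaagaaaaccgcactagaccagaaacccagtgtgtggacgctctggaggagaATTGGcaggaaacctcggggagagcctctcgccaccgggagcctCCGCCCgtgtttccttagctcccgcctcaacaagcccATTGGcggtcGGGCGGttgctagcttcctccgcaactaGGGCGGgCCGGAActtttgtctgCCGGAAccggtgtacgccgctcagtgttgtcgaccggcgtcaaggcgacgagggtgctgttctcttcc
Med20: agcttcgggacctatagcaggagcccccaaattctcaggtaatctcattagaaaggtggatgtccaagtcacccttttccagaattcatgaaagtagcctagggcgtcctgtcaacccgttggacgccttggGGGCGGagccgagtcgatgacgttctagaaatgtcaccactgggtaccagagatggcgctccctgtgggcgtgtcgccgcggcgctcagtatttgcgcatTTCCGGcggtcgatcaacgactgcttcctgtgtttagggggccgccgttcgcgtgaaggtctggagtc

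The Ccnc promoter held 2 CCAAT, 3 GGGCGG and 2 CCGGAA matches, and that of Med20 held 1 GGGCGG and 1 CCGGAA match. Med16 had 1 TATAAA match, read on the opposite strand, and Med25 had none of the 4 motifs in this window. In the GENCODE M21 annotation Med25 starts at base 44892712 of chromosome 7, on the minus strand. The window shown for Med25 therefore lies inside the gene as annotated there. Of the 28 Mediator promoters, 13 (46.4%) held CCGGAA, against 15.2% of 27025 RefSeq promoters of all genes. GGGCGG was in 18 of the 28 (64.3%), against 35.9% of all promoters. CCAAT was in 11 (39.3%), against 37.9%, and TATAAA in 3 (10.7%), against 14.2%. Mediator promoters were richer in CG dinucleotides, with a median of 22 against 7 in all promoters. GGGCGG and CCGGAA share that base composition, while CCAAT and TATAAA hold no CG. The Med16 promoter held 8 CG dinucleotides.

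In the fathers, no Mediator gene passed the test. The largest differences by p were a lower mean of Ccnc in exercised fathers and higher means of Med4 and Med29, each a small fraction of the level. Of the 33 genes, 0 had an adjusted p under 0.05 with limma (background 0% of 17493 genes), and 3 had an unadjusted p under 0.05, against 8.01% of all genes. The smallest adjusted p was 0.539, DESeq2 and edgeR on recovered reads called 0 of the 33 (background 0.377% and 0% of all genes), and 21 of the 33 had a log2 fold change above 0, against 51.2% of all genes. In bulk tissue, fewer cells of a type and less RNA per cell cannot be told apart.

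Ccnc, the cyclin that activates Cdk8 and Cdk19, had 1312, 1305, 1275 and 1180 normalized counts in exercised fathers, against 1472, 1451, 1346 and 1439 in sedentary fathers. All 4 libraries of exercised fathers lay below all 4 of sedentary fathers, a separation found for 2.34% of all genes. The log2 fold change was -0.17 with an SE of 0.05 (95% interval -0.28 to -0.06, limma adjusted p = 0.539). In the authors' deposited table the unmoderated log2 fold change of Ccnc was -0.15, with an adjusted p of 1.00. Ccnc has the lowest transcript GC content of the 33 genes, 35.5%, and its log2 fold change was -0.06 once the trend of log2 level on GC content was removed from each library.

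Med4, a middle-module subunit, had 728, 677, 725 and 695 normalized counts in exercised fathers, against 651, 662, 651 and 643 in sedentary fathers. The groups did not overlap, and the log2 fold change was 0.12 with an SE of 0.05 (limma adjusted p = 0.596). Med29 had 454, 437, 397 and 459 normalized counts in exercised fathers, against 379, 413, 402 and 374 in sedentary fathers. One library of exercised fathers lay within the range of sedentary fathers, and the log2 fold change by limma was 0.16 (SE 0.07, adjusted p = 0.619). Separation of all libraries was found for 3 of the 33 genes, Ccnc lower and Med4 and Med22 higher, against 5% of all genes (2.34% lower and 2.66% higher); Med22, a head subunit, was named after its values were seen and averaged 1024 normalized counts in exercised fathers and 949 in sedentary fathers.

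Of the other kinase subunits in the fathers, Cdk19 had 3614, 3131, 3255 and 3491 normalized counts in exercised fathers, against 3537, 3707, 3576 and 3552 in sedentary fathers, with overlapping groups and a log2 fold change of -0.09 (SE 0.05, limma adjusted p = 0.632). Cdk8 averaged 1024 ± 59.0 normalized counts in exercised fathers and 1056 ± 68.2 in sedentary fathers (SD, n = 4 each), a log2 fold change of -0.04 that became 0.0031 with the GC trend removed. The kinase module as a whole had 2 of 7 genes above 0 and a median log2 fold change of -0.04 (0.0031 with the GC trend removed). When single libraries were left out that median ran from -0.07, without replicate 3 of the sedentary fathers, to -0.0042, without replicate 1 of them. The tail had 3 of 5 above 0 and a median of 0.05, and with the GC trend removed 4 of 5 and 0.02. Its median ran from 0.02 to 0.07, without those same 2 libraries. The median over all genes tested was 0.003. Among tail subunits, Med25 had 2804, 2746, 2733 and 2954 normalized counts in exercised fathers, against 2459, 2567, 2765 and 2684 in sedentary fathers (log2 fold change 0.10, or 0.04 with the GC trend removed, SE 0.05, limma adjusted p = 0.619). Med16 averaged 2239 ± 123 normalized counts in exercised fathers and 2096 ± 110.9 in sedentary fathers (SD, n = 4 each), with a log2 fold change of 0.10 that became 0.02 with the GC trend removed. Med21, a middle subunit, averaged 446 ± 30.2 in exercised fathers and 470 ± 25.01 in sedentary fathers (SD, n = 4 each), a log2 fold change of -0.08 that became -0.02 with the GC trend removed.

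In the offspring, the tail and the kinase module lay on opposite sides of 0, and no Mediator gene passed with limma. All 5 tail genes had higher means in the offspring of exercised fathers, with a median log2 fold change of 0.10, and 6 of 7 kinase-module genes had lower means, with a median of -0.14; the median over all 17522 genes tested was -0.0009. Of the 33 genes, 17 were above 0, against 49.6% of all genes. With limma, 0 of the 33 genes had an adjusted p under 0.05 (background 0% of 17522 genes). At an unadjusted p under 0.05 there were 5 of 33, against 9.85% of all genes: Med16, Med25 and Med24 were higher (4.37% of all genes were higher at that p) and Ccnc and Med20 lower (5.48%). DESeq2 on recovered reads called Med16 and Med25, 2 of 33, against 39 genes or 0.223% of all, and edgeR called 0 (background 0%, with 1650 genes at an unadjusted p under 0.05). In no Mediator gene did the groups separate fully, against 0.148% of all genes.

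Med16, a tail subunit contacted by transcription factors, had the smallest p of the 33. Its normalized count was 2188 at the lowest, 2311 at the median and 2515 at the highest in offspring of exercised fathers, against 1900, 2062 and 2222 in offspring of sedentary fathers. Of the 7 libraries, 6 lay above the highest of the offspring of sedentary fathers. How many of all genes separate to that degree was not computed, here or for the genes below. The log2 fold change was 0.19 (SE 0.04, 95% interval 0.10 to 0.27, a fold of 1.14), with an adjusted limma p of 0.311, and DESeq2 gave an adjusted p of 0.0127. Both tests took the 7 libraries as independent, although 3 title stems are each shared by 2 of them. DESeq2 was not run with such libraries averaged. Over the alternative settings its adjusted p ran from 0.0127 to 0.609. In the authors' deposited table its unmoderated log2 fold change was 0.19 and its adjusted p 0.0166, one of 11 genes under 0.05 there (0.0877% of 12544). Its transcript GC content, 60.2%, is the highest of the 33 genes, and with the GC trend removed the log2 fold change was 0.12 (limma adjusted p = 0.606).

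Med25, a tail subunit that binds activation domains of transcription factors, followed. It had 2840, 2976 and 3303 normalized counts at the lowest, median and highest in offspring of exercised fathers, against 2557, 2708 and 2904 in offspring of sedentary fathers. Here too 6 of 7 libraries lay above the highest of the offspring of sedentary fathers. The log2 fold change was 0.14 (SE 0.04, 95% interval 0.07 to 0.22), with an adjusted limma p of 0.368 and an adjusted DESeq2 p of 0.0377. These tests too took the 7 libraries as independent. The authors' deposited table gives it an adjusted p of 0.0669, and both Med16 and Med25 are in the authors' deposited list of 75 genes, a size equal to the number at an adjusted p under 0.1 in that table (0.598% of 12544).

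Med24, another tail subunit, had 3799, 3896 and 4397 normalized counts at the lowest, median and highest in offspring of exercised fathers, against 3513, 3698 and 3911 in offspring of sedentary fathers. The groups overlapped, although all 7 libraries lay above the mean of the offspring of sedentary fathers. By limma its log2 fold change was 0.10 (SE 0.04, adjusted p = 0.436). The remaining tail genes, Med15 (a target of lipid-regulating factors) and Med23 (a target of growth-factor signalling), had log2 fold changes of 0.06 each, with adjusted limma p of 0.588 and 0.705.

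**Figure D2:**
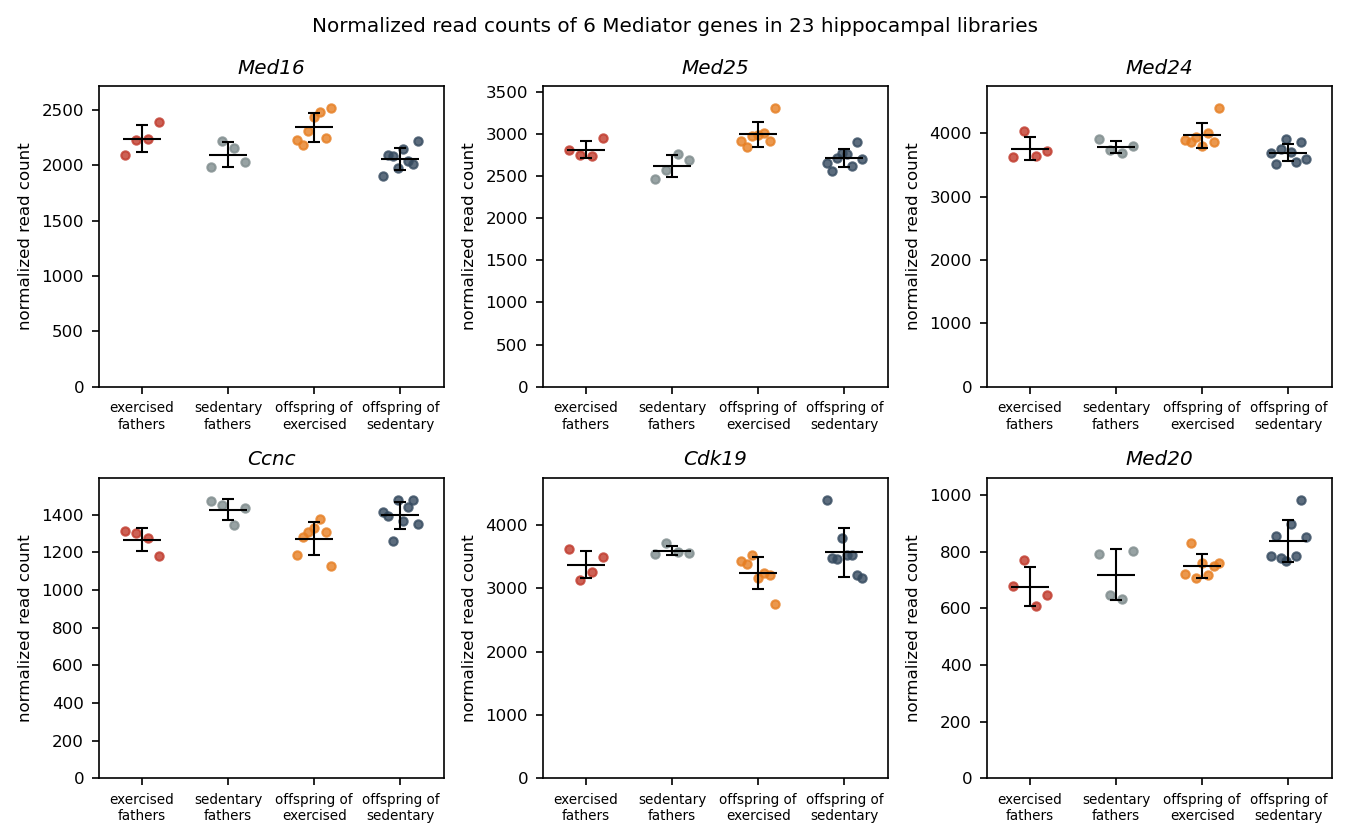
Normalized read count (y axis, from 0) of 6 Mediator genes in exercised and sedentary fathers and in the offspring of each (x axis); dots are libraries, horizontal marks are means and error bars are SD (n = 4, 4, 7 and 8). For Med16 and Med25, 6 of 7 libraries in the exercised line lie above all 8 from offspring of sedentary fathers. The share of all genes that do so was not computed. For Ccnc all 4 libraries of exercised fathers lie below all 4 of sedentary fathers, a separation found for 2.34% of all genes.

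Ccnc was again lower on average: 1126, 1307 and 1378 normalized counts at the lowest, median and highest in offspring of exercised fathers, against 1261, 1404 and 1480 in offspring of sedentary fathers. All 7 libraries lay below the mean of the offspring of sedentary fathers, and 2 lay below the lowest of them. The log2 fold change was -0.14 (SE 0.05, 95% interval -0.23 to -0.04, limma adjusted p = 0.435), and -0.09 with the GC trend removed. Cdk19 had 2743, 3241 and 3523 normalized counts in offspring of exercised fathers, against 3160, 3505 and 4394 in offspring of sedentary fathers. By limma its log2 fold change was -0.14 (SE 0.06, adjusted p = 0.509), while that of Cdk8 was -0.03 (SE 0.04) and became 0.02 with the GC trend removed. Med13 (-0.16), Med12l (-0.14) and Med13l (-0.08) also had lower means, with adjusted limma p of 0.516, 0.567 and 0.724, and Med12 had a log2 fold change of 0.05.

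Med20, a head subunit related to the TATA-binding protein in fold, had 707, 751 and 831 normalized counts at the lowest, median and highest in offspring of exercised fathers, against 769, 819 and 984 in offspring of sedentary fathers. Of the 7 libraries, 6 lay below the lowest of the offspring of sedentary fathers. The log2 fold change by limma was -0.16 (SE 0.05, adjusted p = 0.436), and -0.14 with the GC trend removed. Med20 overlaps the protein-coding Gm20517 on the same strand, so the assignment of its reads is uncertain. On the opposite strand, Ccnc overlaps the protein-coding Tstd3, Med21 Tm7sf3, Med19 Tmx2 and Zdhhc5, and Med12l several genes, among them P2ry12. Cdk19 overlaps the antisense transcript Cdk19os. Whether counting was strand-aware is not known, so the reads of these genes may be affected too. The other head genes lay between -0.01 (Med22) and 0.21 (Med18), and 5 of 8 middle genes were below 0, the farthest being Med21 at -0.11 (limma adjusted p = 0.562, and -0.06 with the GC trend removed).

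**Figure D3:**
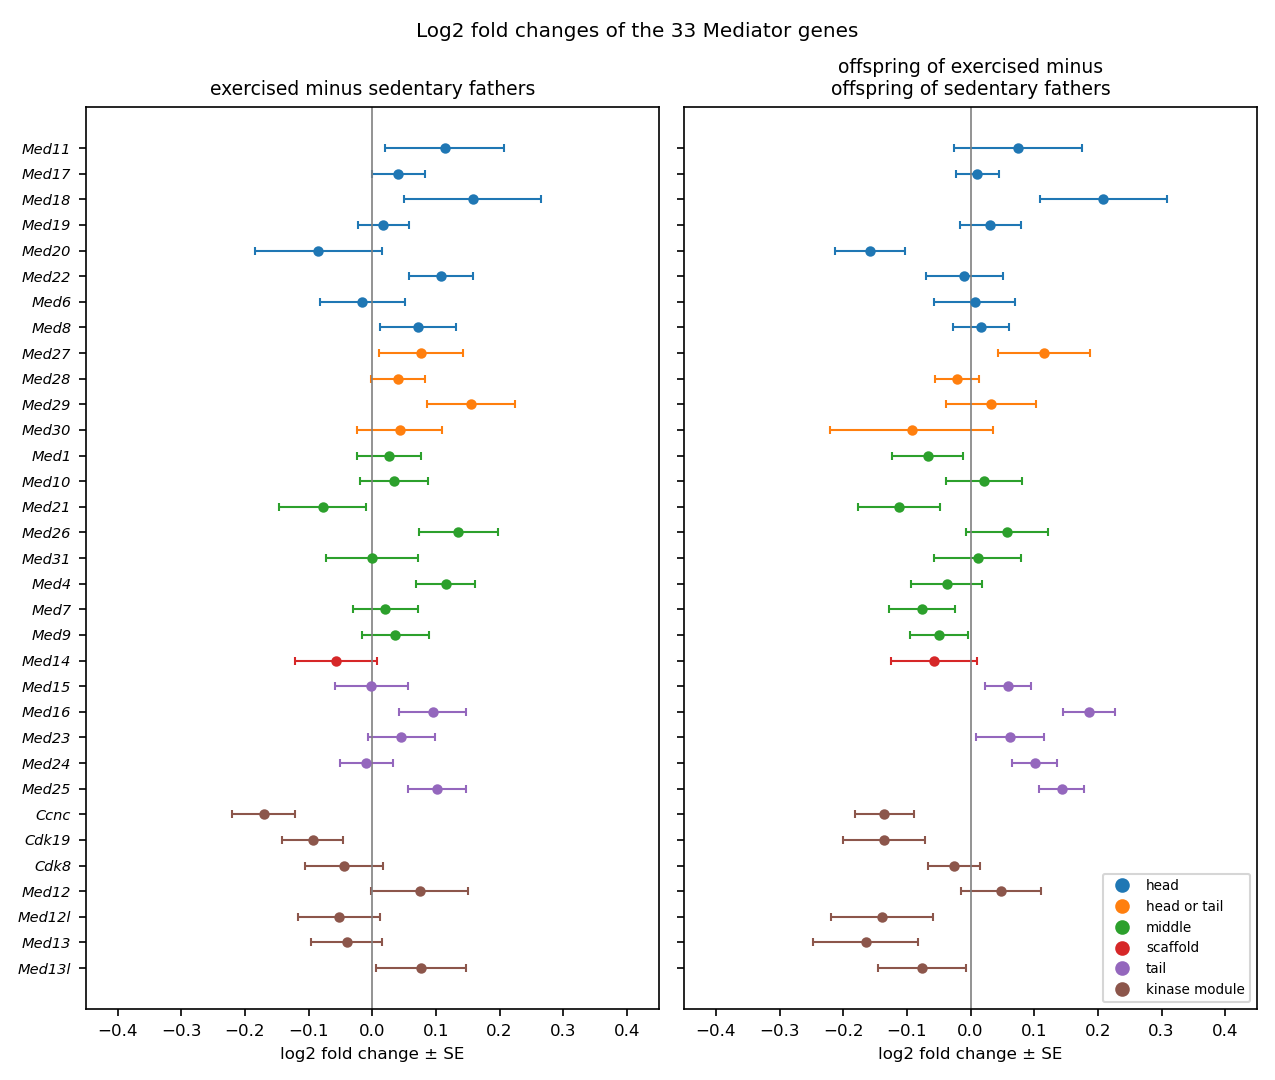
Log2 fold change with its SE (x axis) of the 33 Mediator genes (y axis), coloured by module, for exercised minus sedentary fathers (left) and for offspring of exercised minus offspring of sedentary fathers (right). In the offspring all 5 tail genes lie above 0 and 6 of 7 kinase-module genes below it, the exception being Med12; the sign of Cdk8 turned with the GC trend removed in both panels.

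Direction moved with the GC content of the transcript, in Mediator genes as in all others. In the offspring, 10 of the 13 Mediator genes with a GC content above the median of all genes (49.3%) had a log2 fold change above 0, against 7 of the 20 below it. Among all genes these shares were 63.5% and 35.7%. In the fathers they were 11 of 13 and 10 of 20 for Mediator genes, and 68.1% and 34.3% for all genes. Across the 33 genes, the Spearman correlation of GC content with the log2 fold change was 0.62 in the offspring and 0.59 in the fathers, and across all genes 0.30 and 0.38; all points of a comparison share the same libraries.

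The GC balance differed between libraries. It was taken as the median log2 deviation of genes with GC content from 54.2% (the upper quartile) up, minus that of genes up to 44.4% (the lower quartile). It averaged 0.04 ± 0.07 in exercised fathers and -0.08 ± 0.09 in sedentary fathers (SD, n = 4 each), 0.05 ± 0.10 in offspring of exercised fathers (n = 7) and -0.04 ± 0.07 in offspring of sedentary fathers (n = 8). Replicate 7 of the offspring of exercised fathers had the highest value of all libraries, 0.25, and without it the mean of its group was 0.02 ± 0.05 (n = 6). In the other groups 1 library also moved the mean by over 1.5 times. The mean was 0.0077 in exercised fathers without replicate 4, -0.04 in sedentary fathers without replicate 1, and -0.02 in offspring of sedentary fathers without replicate 1. Replicate 4 of the exercised fathers is the only library of the fathers in barcode series AD21, which holds 3 libraries in all. With the GC trend removed from every library, the offspring tail median was 0.08 and 5 of 5 genes stayed above 0, the kinase-module median was -0.09 with 5 of 7 genes below 0, and 0 Mediator genes passed with limma.

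**Figure D4:**
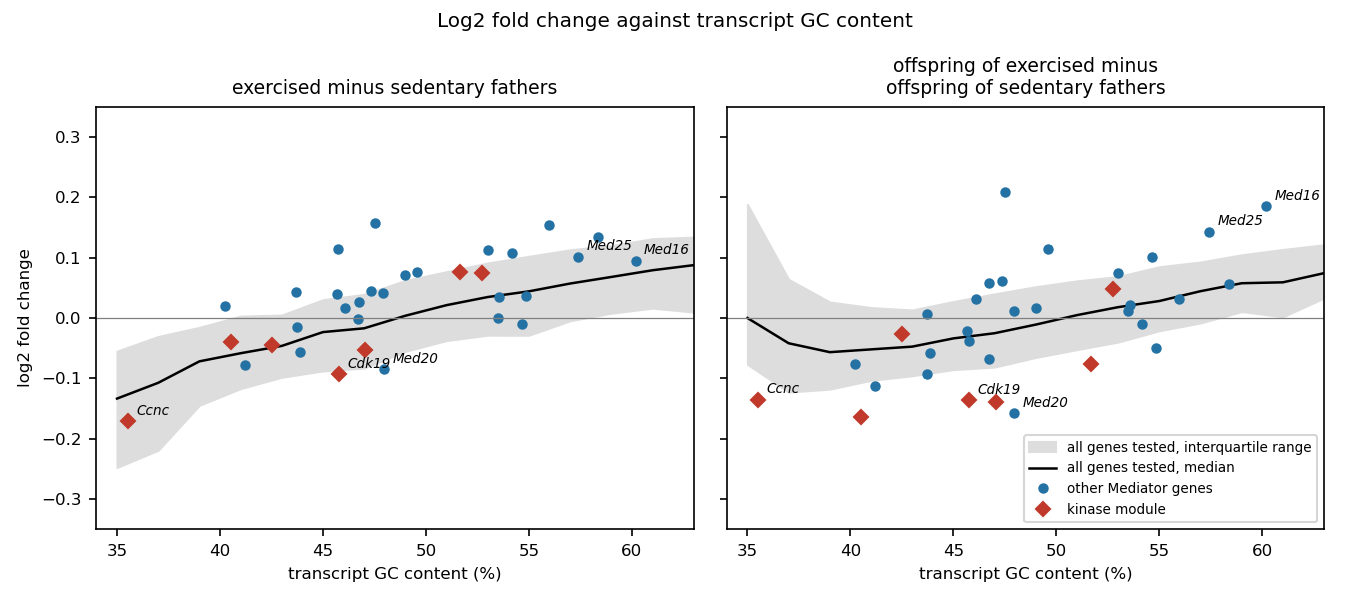
Log2 fold change (y axis) against GC content of the longest transcript in percent (x axis) for exercised minus sedentary fathers (left) and offspring of exercised minus offspring of sedentary fathers (right); the line and band give the median and interquartile range of all genes tested per 2% bin with at least 100 genes, circles are Mediator genes and diamonds those of the kinase module. Ccnc, at 35.5% GC, and Med16, at 60.2%, sit at opposite ends of the axis.

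Tail and kinase module were set against each other within each library. The measure was the mean of log2(normalized count + 1) over the 5 tail genes minus that over the 7 kinase-module genes. It uses the genes and libraries behind the module medians, so it is no separate support for them. The measure was not among the planned tests. Of all modules, these 2 had the highest and lowest median log2 fold change in the offspring, 0.10 and -0.14. A gap between the offspring groups therefore follows from the choice of modules. The log2 levels were not divided by transcript length, so the difference can be compared between libraries, while its own 0 has no meaning. The median transcript GC content was 54.7% in the tail and 45.8% in the kinase module. The difference therefore also sets genes of higher GC content against genes of lower GC content. It was not corrected for the GC trend, and the part of GC content in it was not tested. This difference was 0.05 ± 0.08 in exercised fathers and -0.03 ± 0.07 in sedentary fathers (SD, n = 4 each), ranging from -0.03 to 0.13 and from -0.12 to 0.03. It was 0.13 ± 0.13 in offspring of exercised fathers (n = 7) and -0.07 ± 0.07 in offspring of sedentary fathers (n = 8), ranging from -0.03 to 0.38 and from -0.21 to 0.04. Groups overlapped in both generations. The library with the highest difference, 0.38, was replicate 7 of the offspring of exercised fathers, and the one with the lowest, -0.21, was replicate 1 of the offspring of sedentary fathers, whose GC balance was -0.16. Without them the offspring means were 0.09 ± 0.08 (n = 6) in the exercised line and -0.05 ± 0.05 (n = 7) in the sedentary line. In the fathers, the mean was 0.02 in the exercised group without replicate 4, the AD21 library, and -0.00068 in the sedentary group without replicate 1.

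**Figure D5:**
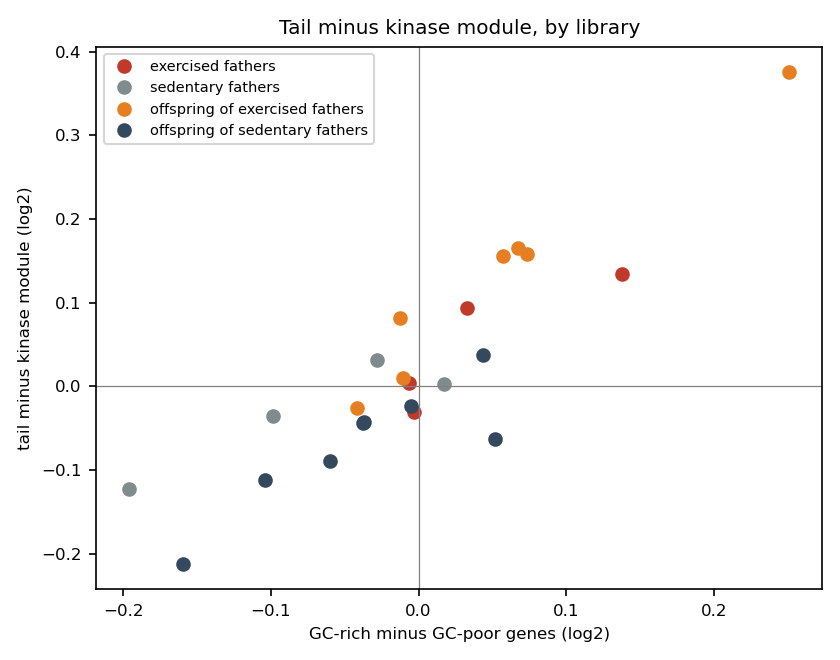
Mean log2 level of the tail genes minus that of the kinase-module genes (y axis) against the GC balance, GC-rich minus GC-poor genes on the log2 scale (x axis), with one dot for each of 23 libraries coloured by group. Libraries run from the lower left, where replicate 1 of the offspring of sedentary fathers lies at -0.21, to the upper right, where replicate 7 of the offspring of exercised fathers lies at 0.38. The tail genes have a higher median GC content (54.7%) than the kinase-module genes (45.8%), so the axes are not independent. These modules had the highest and lowest offspring medians, so a gap between the offspring groups follows from their choice.

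Without that replicate 7, the log2 fold changes in the offspring were 0.17 for Med16, 0.12 for Med25, 0.08 for Med24, -0.11 for Ccnc, -0.10 for Cdk19 and -0.16 for Med20, and 0 Mediator genes passed with limma. The tail median was then 0.09 and the kinase-module median -0.10, and the adjusted p of Med16 was 0.513. With libraries of one title stem averaged, which left 4 values for the offspring of exercised fathers, Med16 was at 0.20 and Med25 at 0.16. With this averaging too, 0 Mediator genes passed with limma. Marker levels of other cells were read beside these values. Endothelial markers were lower on average in both generations, in 4 of 4 genes, with summed levels of 3812 to 4877 normalized counts in exercised fathers and 4929 to 5129 in sedentary fathers, and of 4637 to 6513 in offspring of exercised fathers and 5021 to 6467 in offspring of sedentary fathers. Summed astrocyte markers ran from 43282 to 48144 in offspring of exercised fathers and from 45102 to 53631 in offspring of sedentary fathers. Oligodendrocyte markers were lower on average in 5 of 5 genes in the offspring of exercised fathers (median log2 fold change -0.08), with sums of 171736 to 241838 there and 199559 to 275471 in the offspring of sedentary fathers. Microglia markers were lower in 4 of 4 (median -0.04), with sums of 7559 to 8396 in the offspring of exercised fathers and 7358 to 9231 in the offspring of sedentary fathers.

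In the fathers, thalamus and habenula markers were lower on average in 7 of 8 genes in the exercised group (median log2 fold change -0.45), with sums of 6363 to 10269 normalized counts in exercised fathers and 6470 to 19502 in sedentary fathers. Meningeal fibroblast markers were lower in 4 of 4 (median -0.82), with sums of 1177 to 3693 in exercised fathers and 2693 to 3588 in sedentary fathers. Erythrocyte markers were lower in 5 of 5 (median -0.81), with sums of 472 to 1455 in exercised fathers and 1011 to 4301 in sedentary fathers. None of the markers in these lists passed with limma in either exercise comparison or was at 0 in all libraries of a group, and the part of these cells in the Mediator values was not tested.

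Other parts of the transcription machinery were read beside Mediator, and 0 genes of these lists passed with limma in either exercise comparison. In the offspring, the 10 genes of cohesin and its loader, which works with Mediator at enhancers, all had log2 fold changes below 0, with a median of -0.09 (-0.04 with the GC trend removed and 8 of 10 below 0). Smc3, a ring subunit of cohesin, averaged 3003 ± 99.8 normalized counts in offspring of exercised fathers (SD, n = 7) and 3178 ± 125 in offspring of sedentary fathers (n = 8), with an adjusted limma p of 0.450. Nipbl, the cohesin loader, averaged 2793 ± 358 and 3116 ± 338 in the same groups, with an adjusted limma p of 0.516. The 12 RNA polymerase II subunits had 6 genes above 0 and a median of -0.001 (0.00042 with the GC trend removed), with Polr2i at 0.14 and Polr2j at 0.07. The 31 general transcription factor genes had 11 above 0 and a median of -0.03 (-0.01 with the GC trend removed), with Ccnh, the cyclin of the TFIIH kinase, at -0.10 and Gtf2e2 at -0.12. Of 23 pausing and elongation genes, 13 were above 0 with a median of 0.007 (0.00077 with the GC trend removed), among them Ell at 0.13 and Cdk9, the P-TEFb kinase, at 0.12. At an unadjusted limma p under 0.05, 5 of these 23 were higher and 1 lower. There were also 1 higher and 3 lower general transcription factor genes, 1 lower cohesin gene and 0 polymerase subunits. Of all genes, 4.37% were higher and 5.48% lower at that p.

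In the fathers, cohesin genes had 2 of 10 above 0 and a median of -0.04 (0.01 with the GC trend removed), with Stag2 and Stag1 at -0.10 each. The polymerase subunits had 8 of 12 above 0 and a median of 0.05 (0.02 with the GC trend removed), with Polr2j at 0.12 and Polr2e at 0.09. General transcription factors had 17 of 31 above 0 and a median of 0.01 (22 of 31 and 0.03 with the GC trend removed), with Gtf2a1 at -0.11 and Taf8 at 0.20. Pausing and elongation genes had 15 of 23 above 0 and a median of 0.03 (0.0029 with the GC trend removed), with Mllt1 at 0.13 and Hexim1, the inhibitor of P-TEFb, at 0.10. At an unadjusted limma p under 0.05, 1 pausing and elongation gene and 1 polymerase subunit were higher. Of general transcription factors 2 were higher and 2 lower, and of cohesin genes 0 passed, against 8.01% of all genes. The smallest adjusted limma p among these lists was 0.539 in the fathers, for Mllt1, and 0.436 in the offspring.

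The exercise comparisons of the 2 generations share no library. The sign of the log2 fold change was the same in both for 21 of the 33 Mediator genes (63.6%), 13 above 0 and 8 below, against 57.1% of 17263 genes tested in both. Ccnc, Cdk19, Med16 and Med25 were among those with the same sign, and Med4 and Med24 were not. The difference of the exercise effect, fathers minus offspring, was called by limma for 0 of the 33 genes (background 0% of 18377 genes), and 0 of 33 had an unadjusted p under 0.05, against 5.67% of all genes. DESeq2 called 0 of 33 against 0.0326% of all genes, and edgeR 0 against 0%. For Med16 this difference was -0.09 (SE 0.07, 95% interval -0.23 to 0.05), for Med25 -0.04 (-0.16 to 0.08), for Med24 -0.11 (-0.23 to 0.006) and for Ccnc -0.04 (-0.19 to 0.12), the last becoming 0.03 with the GC trend removed. All 5 tail genes had a difference below 0, where 51.6% of all genes were above it, with a median of -0.06 and a smallest adjusted limma p of 0.892.

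Between generations, which differ in age and history at once, no Mediator gene passed with limma. Exercised fathers against offspring of exercised fathers gave 0 of 33 genes at an adjusted limma p under 0.05 (background 12 genes or 0.0653% of 18377), 0 with DESeq2 (0.642%) and 0 with edgeR (0.0544%), and 1 at an unadjusted p under 0.05, against 10.1% of all genes. That gene was Med25, at a mean of 2809 ± 101 normalized counts in exercised fathers, against 2993 ± 148 in their offspring (SD, n = 4 and 7). Its log2 fold change there was -0.09 (SE 0.04), with an adjusted limma p of 0.464. The log2 fold change farthest from 0 in this comparison, picked out after its values were seen, was that of Med30, 0.26 (SE 0.14, 95% interval -0.02 to 0.54), with an adjusted limma p of 0.531. Med30 had 446, 468, 478 and 484 normalized counts in exercised fathers, against 229, 398 and 497 at the lowest, median and highest in offspring of exercised fathers. The value of 229 was that of replicate 4 alone, and the next lowest library of that group had 378. Med30 was not among the genes examined below for a library far from its group. Sedentary fathers against offspring of sedentary fathers gave 0 of 33 (background 55 genes or 0.299%), 0 with DESeq2 (1.94%) and 0 with edgeR (0.457%), and 1 at an unadjusted p under 0.05, against 12.7%. That gene was Med20, with 792, 649, 634 and 802 normalized counts in sedentary fathers, against a lowest of 769, a median of 819 and a highest of 984 in offspring of sedentary fathers. By limma its log2 fold change was -0.23 (SE 0.08, 95% interval -0.38 to -0.07, adjusted p = 0.180). The same gene gave -0.15 (SE 0.08) in exercised fathers against offspring of exercised fathers, with an adjusted limma p of 0.523.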

How the data were processed

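Hippocampal mRNA, enriched for poly(A), went into strand-specific libraries read from both ends, as the protocols in the labels state. GRCm38 is the build, and DESeq2 1.10, RSEM 1.2.28 and STAR 2.5.2a are the tools, in the submitters' processing notes, which give them no role. For strand-aware counting, the setting is not given in the sources used here. Deposited normalized counts are a signal that the authors made by dividing each library's counts by one size factor, as read from the values. Dividing by the value of 1 read gave whole reads within 0.1 for 100% of values in every library; in 4 libraries that value was within 1 percent of 1, where this is a weak check. The comparison tables that the authors deposited hold a mean signal, log2 fold changes, their standard errors (a score), a p-value and an adjusted p-value per gene, per the file headers. According to the table titles, one outlying sample, not named there, is absent.

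Libraries were grouped by the labels, with no pairing between groups, since replicate numbers here only name libraries. Nothing in the labels says that libraries are of different animals, so p-values cover the spread among these libraries, part of which may be technical. In the offspring of exercised fathers, 7 libraries carry 4 title stems, 3 of them shared by a pair of libraries, and the labels do not say what a stem marks. No pair of libraries within a group agreed within sampling noise (61 pairs, chi-square per degree of freedom from 5.99 up). The test was limma (version 3.58.1, R 4.3.3), two-sided, fitted to log2 values after adding 1 to the normalized count, with a mean-variance trend. Genes reaching 10 normalized counts in 4 or more libraries (7 in the offspring comparison) entered, and p-values were adjusted over all of them by Benjamini-Hochberg. Fold changes on this scale understate changes of low genes. Generation and difference tests used 1 fit of all 23 libraries. edgeR 4.0.16 and DESeq2 1.42.0 on recovered reads were alternatives, and the fits were checked on simulated data. Transcript length and GC content are those of the longest transcript in GENCODE M21, matched for 51633 of 51912 identifiers. Promoters come from RefSeq, one per gene, the first listed.

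The Mediator genes, the other lists, the tests and the naming rule were chosen with earlier results of these data known. Values are given for Med16, Ccnc, Cdk8, Cdk19, and the 3 genes with the smallest p in each direction of each exercise comparison, plus the 2 with the smallest p of each other list.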

Additional observations from a re-analysis of the deposited data

Results flagged for a closer look

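Among the 40 sets of values examined for a library far from the others of its group, 2 were flagged. Chance gives about 1 in 20, so 2 flags in 40 sets are no more than chance gives. Both were tail genes in replicate 7 of the offspring of exercised fathers, so they are not separate events. Med24 was at 4397 normalized counts in that library, against 4007 in the next highest of the group, a gap of 0.653 of the range of the 7 libraries. Med25 was at 3303, against 3013 in the next highest, a gap of 0.627 of the range. The same library had the highest GC balance of all 23 libraries, 0.25, and the lowest Ccnc and Cdk19 counts of its group, 1126 and 2743. Without it the offspring log2 fold changes were 0.08 for Med24 and 0.12 for Med25.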

How the results depend on the processing

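Of 750 values recomputed under 35 alternative settings, 704 kept their direction and their side of the threshold. No setting other than DESeq2 called a Mediator gene: it called 2 in the offspring, Med16 at 0.19 and Med25 at 0.14, among 39 genes, and 66 genes in the fathers, none of them Mediator. With the GC trend removed, Cdk8 turned to 0.0031 in the fathers and 0.021 in the offspring, the kinase-module median in the fathers to 0.0031, and the difference between generations for Ccnc to 0.030. Cdk8 in the offspring also turned to 0.0011 with choroid plexus and thalamus covariates and to 0.0053 without barcode series AD21. The tail median in the fathers was 0.02 with the GC trend removed, 0.05 with the length trend removed, 0.10 with the covariates and 0.06 without barcode series AD21, and ran from 0.02 to 0.07 when single libraries were left out. Leaving out single offspring libraries, added after replicate 7 was seen to stand apart, gave 0 to 1 genes called in the offspring, 1 of them only without replicate 1 of the offspring of sedentary fathers, and 0 Mediator genes.

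For exercised fathers against offspring of exercised fathers, where 12 genes were called, there were 3 with no filter on low values and 118 with DESeq2. There were 22 with the GC trend removed, 21 with the length trend removed and 3 with title stems averaged. When single libraries of fathers were left out there were 0 to 13. For sedentary fathers against offspring of sedentary fathers, where 55 were called, there were 32 with no filter, 84 with edgeR and 357 with DESeq2. There were 28 with the GC trend removed, 155 with the length trend removed, 7 with the covariates and 8 without barcode series AD21. When single libraries of fathers were left out there were 0 to 105. For the difference between generations there were 4 with no filter and 6 with DESeq2. The cause of these changes was not tested. No paired analysis was possible because the labels give no replicate numbers shared between groups. Barcode series AD21 holds 3 libraries, 1 of the exercised fathers and 2 of the offspring of sedentary fathers, so no value within it could be computed.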
